A study of Mus musculus with 9 samples.

Results

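The endoplasmic reticulum (ER) secretory pathway and its stress response were followed in sorted cells of mouse tibial periosteum through 41 genes, chosen by gene symbol: ER chaperones, disulfide isomerases, degradation factors, stress sensors and transcription factors, the COPII export coat, the protein translocon, collagen folding factors and KDEL receptors. Of these 41 genes, 36 had a probe on the array (46 probes in all) and 33 passed the filter on dim probes, out of 10073 genes that passed it in the whole series. Dnajb11, Sdf2l1, Atf6, Sec31a and Fkbp10 were not analysed here. The single probes of Canx, Ern1 and Ssr1 were not above background on any array, so these genes have no value. Among the 33, 29 were detected on all 9 arrays, and Hyou1, Manf, Edem1 and Creb3l1 on only some of them. Below, "the measured genes" means these 33.

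All mice were αSMACreERT2/Ai9 (strain B6;129S6). In them the alpha smooth muscle actin promoter drives a Cre recombinase that tamoxifen switches on, and the Ai9 reporter then marks the recombined cells and their progeny with the red protein tomato, so the sort takes every cell that carries the label whatever it has become. Tamoxifen was given to all animals, with or without fracture, as 2 doses (75 µg per g each). The groups were 3 pools from unfractured periosteum, collected at the time point the labels call day 2, 3 pools from periosteum 2 days after a fracture and 3 pools from periosteum and soft callus 6 days after a fracture; no unfractured pool of day 6 was analysed here. Each pool held sorted cells of 4 to 9 animals of 2 to 5.5 months of age, with 2 male pools and 1 female pool among the replicates of every group. Values are log2 intensities of Illumina bead arrays after background correction and quantile normalisation. Levels of different probes cannot be set against each other, and fewer cells of a type cannot be told apart from less RNA per cell.

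Secreted and membrane proteins enter the ER through the Sec61 translocon and are folded there by chaperones and disulfide isomerases. COPII vesicles carry them to the Golgi, and KDEL receptors bring escaped chaperones back. When unfolded protein accumulates, the sensors Ern1 (IRE1), Eif2ak3 (PERK) and Atf6 start the unfolded protein response, in which Xbp1 and Atf6 switch on chaperone and degradation genes and Atf4 and Ddit3 act downstream of Eif2ak3. Cells that build cartilage and bone export collagen in bulk, and Creb3l1 (OASIS) and Creb3l2 (BBF2H7), relatives of Atf6, are known in osteoblasts and chondrocytes for switching on the export machinery.

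The promoter elements of this response are shown first, because they divide the genes into classes that the results are read against. The first form of the ER stress response element is CCAAT, 9 bases and CCACG; the second form is ATTGG, 1 base and CCACG; the unfolded protein response element is TGACGTGG. Exact matches on both strands were searched in the RefSeq promoter windows of GRCm38.p6, 300 bases each (250 before the transcription start and 50 from it on), which held entries for 33 of the 41 genes. The first form was found in the windows of 8 of these 33 genes (24.2%), against 37 of all 27025 genes with a window (0.137%). The second form was found in 2 (6.06%; 0.0444% of all genes) and the unfolded protein response element in 3 (9.09%; 0.714% of all genes). No window of the 33 held more than 1 kind of element. These are textbook elements of the response, and the 41 genes were chosen from the same pathway. A share above that of all genes is therefore not a result of these data. A match is also not shown to be a bound site. Hyou1, Manf, Atf6, Creb3l1, Sec61a1, Ssr2, Fkbp10 and Kdelr2 had no entry.

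The elements of the measured genes are printed here with 10 bases on either side, 5′ to 3′ along the strand on which the element reads as spelled above. Capitals mark the searched bases. The first 8 lines hold the first form, the next line the second form and the last 3 lines the unfolded protein response element.
Hspa5, chr2:34772015-34772053, plus strand: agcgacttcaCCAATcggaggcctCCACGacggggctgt
Hsp90b1, chr10:86705628-86705666, minus strand: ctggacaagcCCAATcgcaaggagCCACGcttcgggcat
Hsp90b1, chr10:86705523-86705561, plus strand: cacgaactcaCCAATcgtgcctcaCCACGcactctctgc
Calr, chr8:84847065-84847103, plus strand: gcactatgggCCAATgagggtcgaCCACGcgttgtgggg
Dnajc3, chr14:118937817-118937855, plus strand: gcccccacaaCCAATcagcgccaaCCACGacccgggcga
Creld2, chr15:88819510-88819548, minus strand: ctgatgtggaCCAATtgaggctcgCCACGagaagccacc
Pdia6, chr12:17266481-17266519, plus strand: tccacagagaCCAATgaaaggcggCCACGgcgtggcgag
Syvn1, chr19:6046522-6046560, plus strand: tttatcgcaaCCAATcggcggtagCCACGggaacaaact
Herpud1, chr8:94386367-94386397, plus strand: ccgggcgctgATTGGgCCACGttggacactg
Sec23a, chr12:59011994-59012021, minus strand: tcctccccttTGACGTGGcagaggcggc
Sec24d, chr3:123267460-123267487, plus strand: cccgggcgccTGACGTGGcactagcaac
Kdelr3, chr15:79516368-79516395, minus strand: ggccgcgcggTGACGTGGcggggcggcc

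The whole windows of Hspa5, which encodes the chaperone BiP that the response is best known for, and of Kdelr3, a receptor gene with a large day 6 difference below, are given with the same capitals, along the strand of the gene. Both genes lie on the plus strand. In Hspa5 the element spans bases -65 to -47 from the transcription start, and in Kdelr3 bases -30 to -23, where it reads in reverse complement.
Hspa5, chr2:34771840-34772139: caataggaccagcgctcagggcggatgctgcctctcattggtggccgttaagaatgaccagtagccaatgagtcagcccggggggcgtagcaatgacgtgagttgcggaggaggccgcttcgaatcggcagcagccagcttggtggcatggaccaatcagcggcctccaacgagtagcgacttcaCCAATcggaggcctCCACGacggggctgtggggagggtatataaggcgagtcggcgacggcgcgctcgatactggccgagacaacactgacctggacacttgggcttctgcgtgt
Kdelr3, chr15:79516158-79516457: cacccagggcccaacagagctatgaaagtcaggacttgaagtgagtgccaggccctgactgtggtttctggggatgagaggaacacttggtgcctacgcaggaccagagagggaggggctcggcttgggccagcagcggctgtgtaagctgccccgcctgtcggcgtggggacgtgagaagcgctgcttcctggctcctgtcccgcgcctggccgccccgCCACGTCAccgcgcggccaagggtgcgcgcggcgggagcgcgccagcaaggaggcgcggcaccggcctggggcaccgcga

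The pools differed in ways that touch these genes. Between 40.4% and 55.2% of probes were detected per array, with the lowest shares in unfractured replicates 1 and 2 (40.4% and 46.4%). Leukocyte transcripts were abundant in 1 pool per group, namely the third unfractured pool and the first pool of day 2 and of day 6. Mean log2 intensities of 11 macrophage markers reached 10.91, 12.27 and 10.46 there, whereas the remaining 6 pools ranged from 6.56 to 8.53. For 12 pan-leukocyte markers the same pools reached 9.81, 11.30 and 9.75 (remaining pools 6.83 to 8.16). Neutrophil markers (11 genes) reached 12.30, 14.32 and 12.02, but also 12.40 in unfractured replicate 1; the remaining 5 pools ranged from 9.51 to 10.62. Osteoblast markers (8 genes) were also highest of each group in the leukocyte-rich pools, at 12.77, 12.36 and 13.65. The other pools had 11.10 and 10.40 (unfractured), 10.31 and 8.49 (day 2) and 11.37 and 11.09 (day 6). Smooth muscle and pericyte markers (10 genes) were lowest of each group there, at 10.34, 9.06 and 9.85. The name leukocyte-rich thus stands for several differences at once, and their parts were not tested. Plasma cells also secrete heavily. Of 13 plasma and B cell markers 11 had a probe, and Jchain, Tnfrsf17, Prdm1, Cd79a, Cd79b and Derl3 were below the filter. The mean of the 5 that passed lay between 6.11 and 6.70 in every pool. Among these 5, Sdc1 was detected on all 9 arrays, at 7.99 to 9.05, and Irf4 on 8. The part of plasma cells was not tested. Acta2 itself, which encodes alpha smooth muscle actin, was detected throughout, at log2 intensities of 14.09 to 16.09. Results are therefore given over all 9 pools, which is the test, and also over the 6 pools without the leukocyte-rich ones. That setting was chosen after seeing the marker values of these same arrays, so its calls are not an independent test. It leaves 2 pools per group, and its 2 unfractured pools were the arrays with the fewest probes detected, against 52.1% to 55.2% in its 4 fracture pools.

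**Figure D1:**
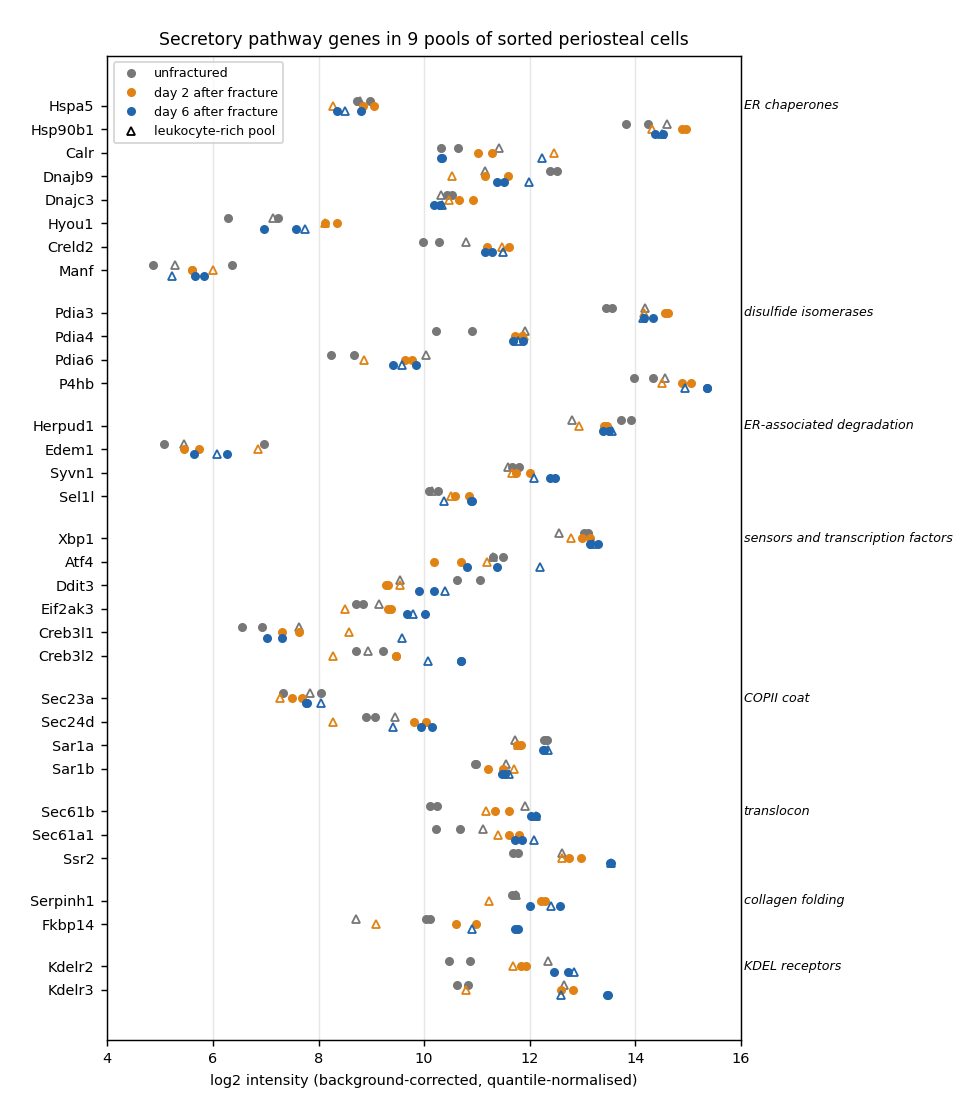
Log2 intensity of the 33 measured genes (horizontal axis) in each of 9 pools, grouped by role. Grey, orange and blue mark unfractured, day 2 and day 6 pools, and open triangles the leukocyte-rich pool of each group. In Ssr2 the 3 day 6 pools lie at 13.52 to 13.54, above all other pools, whereas in Hspa5 the groups overlap.

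At day 6 after fracture, Ssr2, a gene of protein entry into the ER, was the 1 measured gene that passed the test against unfractured periosteum. By role, the median log2 difference was 1.63 for the KDEL receptors (2 genes), 1.33 for the translocon (3 genes) and 1.23 for collagen folding (2 genes), and 0.12 to 0.70 for the other roles. Over all 9 pools 1 of the 33 measured genes rose (Ssr2) and 0 fell (limma adjusted p under 0.05), where 2.19% of all 10073 genes rose and 0.625% fell (2.82% in all). At an unadjusted p under 0.05, 12 were higher (12% of all genes) and 0 lower (8.94%), and 29 of the 33 had a difference above 0 (52.6% of all genes). In 13 of the 33 every day 6 pool lay above every unfractured pool (39.4%; 14.2% of all genes), and in 0 did every day 6 pool lie below (11.8% of all genes). The median log2 change, day 6 minus unfractured, was 0.56 over the 33 and 0.04 over all genes. Without the leukocyte-rich pools 16 of the 33 rose and 2 fell, where 16.4% of all genes rose and 14.1% fell. Leaving out unfractured replicate 3 alone gave 8 rises and 0 falls, where 8.18% of all genes rose and 7.39% fell, and leaving out any other single pool gave at most 2 rises. Cartilage markers moved with the group as well: the mean of 10 chondrocyte markers was 11.95 to 12.91 in day 6 pools, against 6.50 to 6.78 in unfractured pools, and Acan, the cartilage proteoglycan, was at 14.84 to 15.09 at day 6, against 4.86 to 5.70. Smooth muscle and pericyte markers (10 genes) had means of 9.85 to 10.28 at day 6, against 10.34 to 12.52. Of these 10, only Cspg4 had a difference above 0, and it rose (10.51, 10.91 and 11.16, against 9.37, 8.87 and 8.39). Endothelial markers (9 genes) had 8.10 to 10.26, against 9.93 to 11.35, and osteoblast markers (8 genes) 11.09 to 13.65, against 10.40 to 12.77. Of the osteoblast markers 6 had a difference above 0, among them Ibsp (15.28, 14.93 and 14.40, against 12.11, 9.80 and 14.12). Bglap and Bglap2 did not, with Bglap at 15.72, 9.29 and 9.20, against 12.87, 12.70 and 15.73. The part of these cells in the changes below was not tested.

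Among the translocon genes, Ssr2 encodes the beta subunit of the translocon-associated protein complex, which sits beside the Sec61 pore. It had log2 intensities of 11.79, 11.68 and 12.62 in unfractured pools, 12.62, 12.75 and 12.97 in day 2 pools and 13.54, 13.52 and 13.54 in day 6 pools. The 3 day 6 pools were almost equal and above every other pool, and the highest unfractured pool was the leukocyte-rich one. Ssr2 rose by 1.50 ± 0.28 at day 6 (log2, SE, n = 3 pools per group; limma adjusted p = 0.0287), a 2.84-fold difference, and by 1.80 ± 0.18 in the 6 pools (adjusted p = 0.00403). The call was lost in 9 of 20 alternative settings (adjusted p up to 0.136): on leaving out a single pool (unfractured replicates 1 and 2, day 2 replicates 2 and 3, each day 6 pool), in a fit of only the groups compared and with sex in the model.

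Sec61a1, the pore subunit, had log2 intensities of 12.08, 11.85 and 11.71 in day 6 pools, against 10.23, 10.68 and 11.11 in unfractured pools. The groups did not overlap, and the difference of 1.21 ± 0.28 narrowly missed the threshold (adjusted p = 0.0569). Sec61b, a small accessory subunit, had 12.12, 12.12 and 12.03 at day 6, against 10.24, 10.12 and 11.92 in unfractured pools. Here unfractured replicate 3 lay beside the day 6 pools and apart from its own group, so that the difference was 1.33 ± 0.44 over 9 pools (adjusted p = 0.142) and 1.90 ± 0.19 in the 6 (adjusted p = 0.00401). A second Sec61b probe gave 1.31 over 9 pools, close to the first.

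The KDEL receptors return chaperones from the Golgi. Kdelr2 had log2 intensities of 12.83, 12.73 and 12.46 in day 6 pools, against 10.48, 10.87 and 12.34 in unfractured pools, a difference of 1.44 ± 0.44 (adjusted p = 0.112). Kdelr3 had 12.59, 13.47 and 13.45 at day 6, against 10.62, 10.82 and 12.65 in unfractured pools, a difference of 1.81 ± 0.67 (adjusted p = 0.176). In both genes unfractured replicate 3 was more than 1 log2 unit above the other unfractured pools, and in Kdelr3 it overlapped the day 6 group. Without the leukocyte-rich pools Kdelr2 rose by 1.92 ± 0.22 (adjusted p = 0.00509) and Kdelr3 by 2.74 ± 0.19 (adjusted p = 0.00210). Between the leukocyte-rich pools, 1 per group and without a test, day 6 minus unfractured was 0.49 for Kdelr2 and -0.06 for Kdelr3. Whether the change differs between the 2 kinds of pool was not tested.

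**Figure D2:**
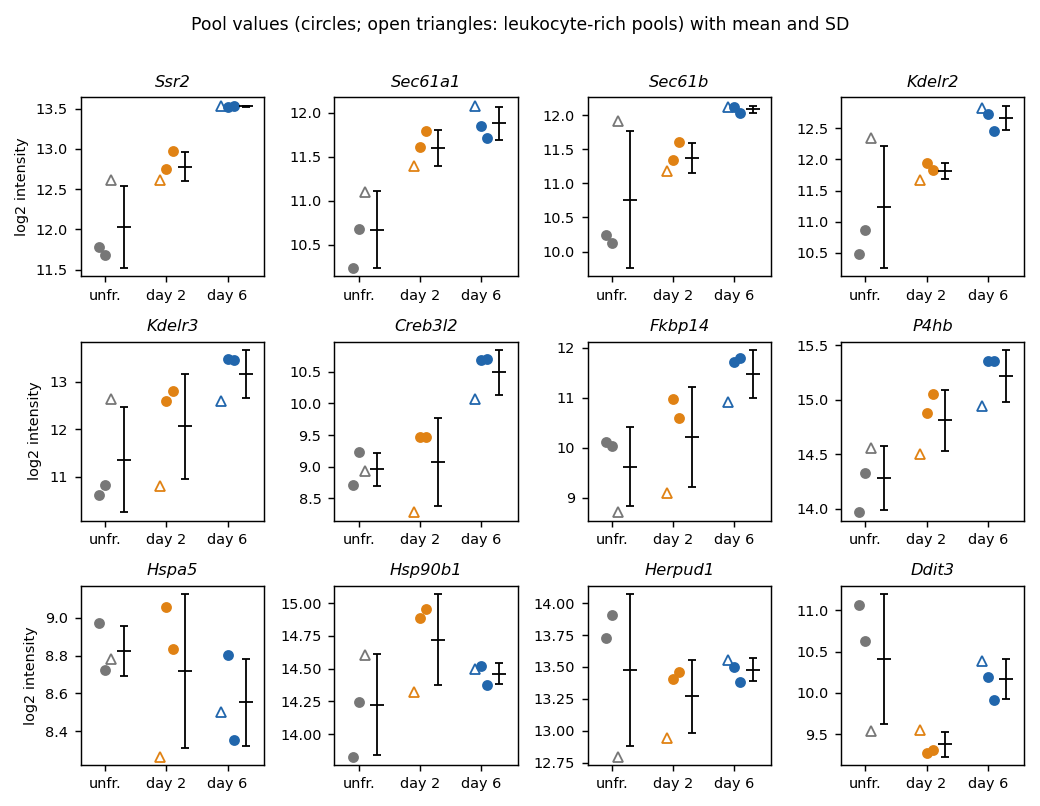
Log2 intensity (vertical axis, scaled per gene) of 12 genes in unfractured, day 2 and day 6 pools, with the mean and SD of each group beside its 3 pools; open triangles are leukocyte-rich pools. Ssr2, Sec61a1 and Creb3l2 separate day 6 from unfractured pools, while in Sec61b, Kdelr2 and Kdelr3 the unfractured leukocyte-rich pool lies far above the other unfractured pools.

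Collagen folding factors lay above unfractured as well. Fkbp14, a prolyl isomerase of the ER that acts on collagen, had log2 intensities of 10.91, 11.72 and 11.79 in day 6 pools, against 10.12, 10.04 and 8.71 in unfractured pools. Every day 6 pool was above every unfractured pool, and the difference of 1.85 ± 0.56 did not pass (adjusted p = 0.115). It was 1.67 ± 0.20 in the 6 pools, where Fkbp14 rose (adjusted p = 0.00551), and 2.20 between the leukocyte-rich pools. Serpinh1 (Hsp47), the collagen-specific chaperone, had 12.41, 12.58 and 12.00 at day 6, against 11.73, 11.66 and 11.74 in unfractured pools. The unfractured pools were almost equal and below every day 6 pool, yet the difference of 0.62 ± 0.32 passed neither over 9 pools (adjusted p = 0.310) nor over 6 (0.59 ± 0.24, adjusted p = 0.118).

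Among the disulfide isomerases, P4hb, which is also the beta subunit of collagen prolyl 4-hydroxylase, had log2 intensities of 14.94, 15.36 and 15.36 in day 6 pools, against 13.97, 14.33 and 14.56 in unfractured pools. The groups did not overlap, with a difference of 0.94 ± 0.27 (adjusted p = 0.0987). Pdia4, Pdia6 and Pdia3, which works with calreticulin on glycoproteins, had differences of 0.76 ± 0.38, 0.63 ± 0.46 and 0.49 ± 0.27, each with overlapping groups (adjusted p = 0.297 to 0.477). Pdia4 had 11.78, 11.87 and 11.68 at day 6, against 10.23, 10.91 and 11.91 in unfractured pools, and Pdia6 had 9.58, 9.85 and 9.41, against 8.23, 8.67 and 10.04. In both, the leukocyte-rich unfractured pool was the highest of these 6. Over the 6 pools, where 16.4% of all genes rose, all 4 isomerases rose, by 0.75 (Pdia3), 1.18 (Pdia6), 1.20 (Pdia4) and 1.21 (P4hb). Between the leukocyte-rich pools the same differences were -0.04, -0.46, -0.13 and 0.39.

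The ER chaperones with the first form of the element gave no common direction. Hspa5 (BiP) had log2 intensities of 8.97, 8.72 and 8.78 in unfractured pools, 8.27, 9.06 and 8.83 in day 2 pools and 8.50, 8.80 and 8.35 in day 6 pools. These ranges overlap throughout, and day 6 minus unfractured was -0.27 ± 0.27 over 9 pools (adjusted p = 0.602) and -0.27 ± 0.23 over 6. Hsp90b1 (GRP94), the Hsp90 of the ER, had 14.50, 14.52 and 14.37 at day 6, against 13.83, 14.24 and 14.60 in unfractured pools, and a difference of 0.24 ± 0.28 (adjusted p = 0.671). Calr (calreticulin), a lectin chaperone, had 12.23, 10.31 and 10.35 at day 6, against 10.64, 10.32 and 11.42 in unfractured pools; its highest pool in each group was the leukocyte-rich one. Its difference was 0.17 ± 0.60 (adjusted p = 0.894). Dnajc3, a co-chaperone of Hspa5, differed by -0.15 ± 0.22.

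Creld2, an ER-resident protein that the stress response induces, was the chaperone gene that came nearest to the threshold. It had log2 intensities of 11.50, 11.28 and 11.14 in day 6 pools, against 9.98, 10.28 and 10.79 in unfractured pools. The groups did not overlap, the difference was 0.96 ± 0.27 (adjusted p = 0.0978), and a second probe gave 0.89. Over the 6 pools Creld2 rose by 1.08 ± 0.23 (adjusted p = 0.0221). Of the other chaperone genes, Hyou1 (GRP170) differed by 0.54 ± 0.33, Manf, a secreted stress factor, by 0.07 ± 0.39, and Dnajb9 (ERdj4), a co-chaperone that Xbp1 induces, by -0.39 ± 0.42. The probe of Manf was above background on 6 of 9 arrays, with log2 intensities of 5.23, 5.84 and 5.66 in day 6 pools, against 4.87, 6.36 and 5.29 in unfractured pools. Dnajb9 had 11.98, 11.52 and 11.38 at day 6, against 12.38, 12.52 and 11.15 in unfractured pools. It fell in the 6 pools, by 1.00 ± 0.21 (adjusted p = 0.0228), whereas its difference between the leukocyte-rich pools was 0.83.

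In the degradation arm, Syvn1 (HRD1), the ubiquitin ligase, had log2 intensities of 12.08, 12.47 and 12.39 in day 6 pools, against 11.66, 11.79 and 11.59 in unfractured pools. Sel1l, its partner in the membrane, had 10.38, 10.88 and 10.92, against 10.09, 10.25 and 10.15. Both genes separated the groups without passing over 9 pools (0.63 ± 0.22, adjusted p = 0.156, and 0.56 ± 0.24, adjusted p = 0.219). Both rose in the 6 pools, by 0.70 and 0.73 (adjusted p = 0.0408 and 0.0371). The probes of Sel1l disagree: the other 2 gave 0.26 and 0.06 over 9 pools. Herpud1, a stress-induced scaffold of the same complex and the gene with the second form of the element, had 13.56, 13.50 and 13.38 at day 6, against 13.72, 13.91 and 12.80 in unfractured pools, and differed by 0.00 ± 0.32. Edem1, a lectin that hands glycoproteins over for degradation, was detected on 6 of 9 arrays and differed by 0.16 ± 0.54.

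Of the sensors and transcription factors, Creb3l2 had the largest difference. Its log2 intensities were 8.71, 9.22 and 8.93 in unfractured pools, 8.27, 9.47 and 9.47 in day 2 pools and 10.08, 10.69 and 10.71 in day 6 pools. Every day 6 pool was above every pool of the other groups. Day 6 minus unfractured was 1.54 ± 0.37 (adjusted p = 0.0660), or 2.90-fold, and it passed in 5 of 20 alternative settings, among them the 6 pools (1.73 ± 0.23, adjusted p = 0.00642). A second Creb3l2 probe differed by 1.17 and passed when every probe was tested on its own (adjusted p = 0.0394). Its paralog Creb3l1 had 9.59, 7.32 and 7.03 at day 6, against 6.55, 6.94 and 7.62 in unfractured pools, and differed by 0.94 ± 0.67 (adjusted p = 0.457). In each group its highest pool was the leukocyte-rich one, which also had the highest mean of osteoblast markers. The part of either cell type was not tested.

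Eif2ak3 (PERK) had log2 intensities of 9.80, 10.02 and 9.68 in day 6 pools, against 8.84, 8.70 and 9.15 in unfractured pools. The groups did not overlap; the difference was 0.93 ± 0.29 over 9 pools (adjusted p = 0.122) and 1.08 ± 0.20 over 6, where it rose (adjusted p = 0.0153). Atf4, which acts downstream of Eif2ak3, had 12.19, 10.81 and 11.38 at day 6, against 11.31, 11.49 and 11.31 in unfractured pools, and differed by 0.09 ± 0.39. Ddit3 (CHOP), a factor of prolonged stress, had 10.39, 10.19 and 9.91 at day 6, against 11.07, 10.63 and 9.54 in unfractured pools, a difference of -0.25 ± 0.38 that became -0.80 ± 0.23 in the 6 pools, where Ddit3 fell (adjusted p = 0.0484), and 0.85 between the leukocyte-rich pools. Under median scaling, which moved the median of all genes to 0.72, the 9-pool differences of Hspa5, Atf4, Ddit3 and Herpud1 were 0.59, 1.10, 0.69 and 1.06. Xbp1 had 13.20, 13.15 and 13.29, against 13.09, 13.03 and 12.56, and its difference of 0.32 ± 0.23 did not pass (adjusted p = 0.476). Xbp1 acts after its mRNA is spliced by Ern1, and the array value was not resolved by splice form here.

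The COPII coat genes differed little over 9 pools. Sec24d, a cargo-binding coat subunit known for collagen export, had log2 intensities of 9.41, 9.94 and 10.16 in day 6 pools, against 9.08, 8.90 and 9.45 in unfractured pools. The groups overlap by the leukocyte-rich pools alone; the difference was 0.69 ± 0.46 (adjusted p = 0.426) over 9 pools and 1.06 ± 0.20 over 6, where Sec24d rose (adjusted p = 0.0156). Sec23a, its partner in the inner coat and a known target of Creb3l2 in mouse cartilage, had 8.05, 7.77 and 7.78 at day 6, against 7.33, 8.05 and 7.84, and differed by 0.13 ± 0.26. Sar1a and Sar1b, the GTPases that start the coat, differed by 0.18 ± 0.23 and 0.36 ± 0.25. Sar1b had 11.60, 11.48 and 11.53 at day 6, against 10.97, 10.99 and 11.55 in unfractured pools, where the leukocyte-rich pool overlapped the day 6 group. A second Sar1b probe gave 0.84 (adjusted p = 0.0831 when every probe was tested).

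**Figure D3:**
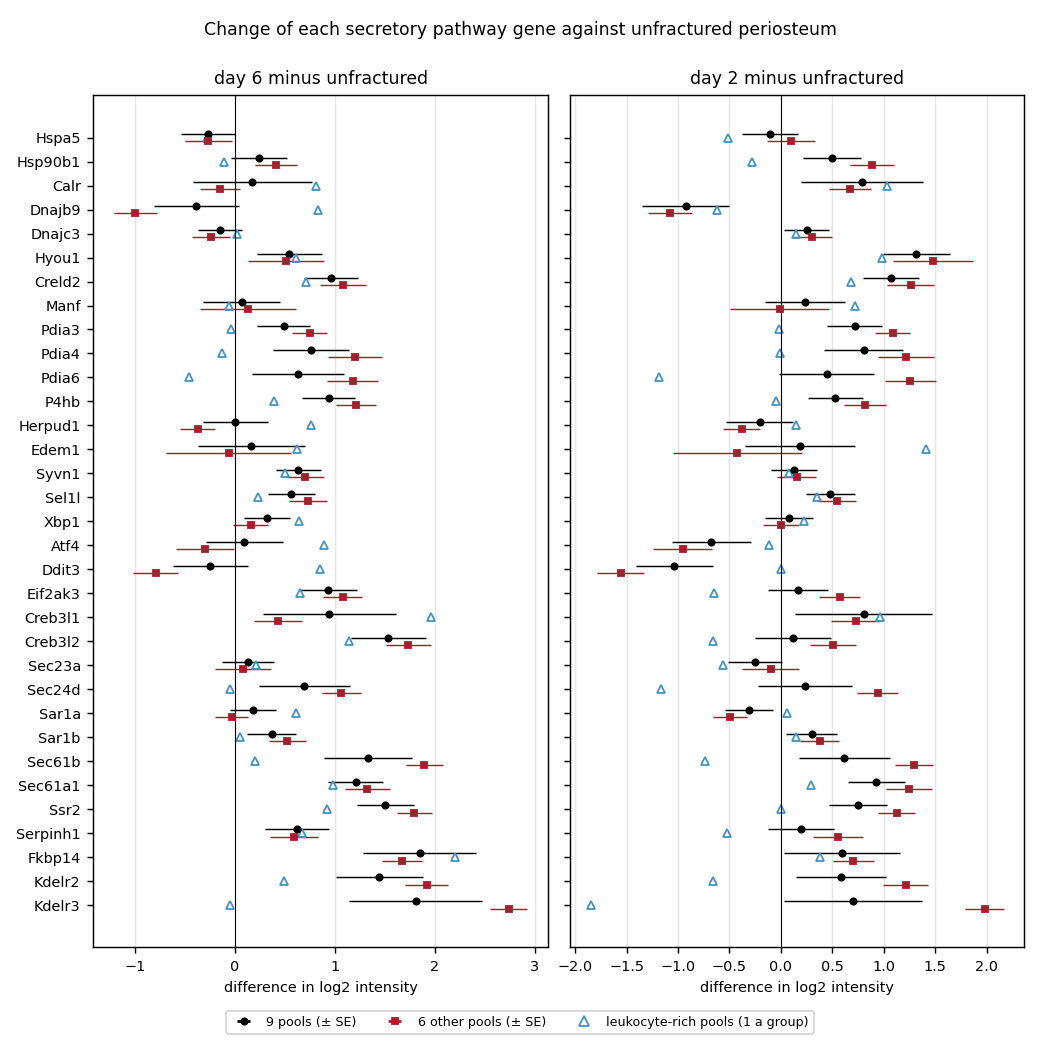
Difference in log2 intensity of each measured gene from unfractured periosteum (horizontal axis; left panel day 6, right panel day 2). Black circles are the fit over 9 pools and red squares the fit over the 6 pools without leukocyte-rich ones, both with SE; open blue triangles are the difference between the 2 leukocyte-rich pools, with no replicate. At day 6 Ssr2, Creb3l2 and Fkbp14 lie right of 0 in all 3, and Kdelr3 lies at 2.74 in the 6 pools and at -0.06 between the leukocyte-rich pools.

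Read by promoter element, the 7 measured genes with the first form had day 6 differences of -0.27 to 0.96 with a median of 0.24, and the 3 with the unfolded protein response element (Sec23a, Sec24d and Kdelr3) had 0.13 to 1.81 with a median of 0.69. The 16 measured genes whose window held none of the elements had -0.39 to 1.85 with a median of 0.52. The classes overlap, and no test was made between them. For day 2 minus unfractured the medians were 0.45, 0.24 and 0.19, and for day 6 minus day 2 they were -0.17, 0.46 and 0.46.

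**Figure D4:**
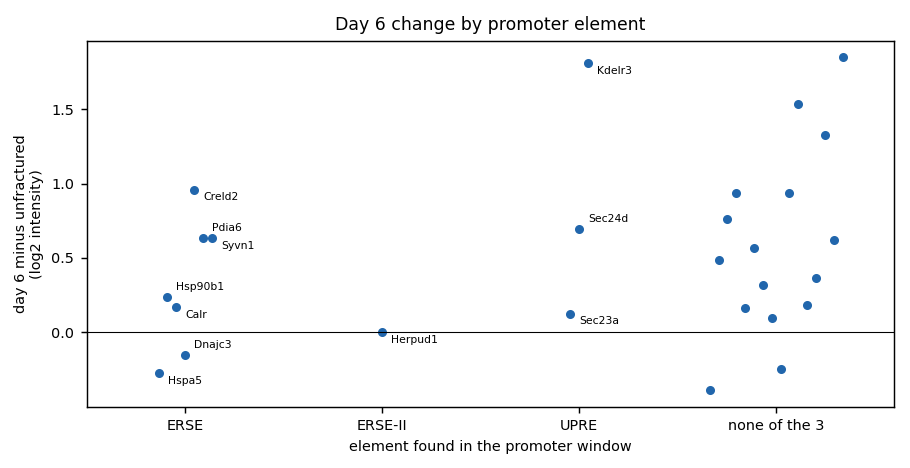
Day 6 minus unfractured log2 difference (vertical axis) of 27 measured genes by the element found in the promoter window; ERSE and ERSE-II are the first and second forms of the ER stress response element and UPRE is the unfolded protein response element. Genes with the first form lie between -0.27 and 0.96, inside the range of genes with none of the 3.

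At day 2 after fracture no gene passed. Of the 33 measured genes 0 rose and 0 fell at an adjusted p under 0.05 in limma, as did 0 of all 10073 genes (0% in each direction). At an unadjusted p under 0.05, 5 of the 33 were higher (9.11% of all genes) and 1 was lower (7.02% of all genes). The groups did not overlap in 5 genes that were higher (15.2%; 10.9% of all genes) and in 1 that was lower (Atf4; 7.69% of all genes), 26 of the 33 had a difference above 0 (54.3% of all genes), and the median log2 difference was 0.30, where that of all genes was 0.06. Without the leukocyte-rich pools 13 rose and 2 fell, where 10.8% and 9.99% of all genes did. Without unfractured replicate 3 alone 8 rose and 1 fell, where 4.86% of all genes rose and 4.31% fell, and without any other single pool none of the 33 passed. In the 6 pools the macrophage markers had means of 7.89 and 8.53 at day 2, against 6.70 and 6.56 in unfractured pools, and the endothelial markers 9.33 and 8.33, against 11.35 and 10.90. Means were also lower at day 2 for neutrophil markers (9.97 and 10.10, against 12.40 and 10.62). The same held for smooth muscle and pericyte markers (11.52 and 11.02, against 12.52 and 12.26) and osteoblast markers (10.31 and 8.49, against 11.10 and 10.40). Skeletal muscle markers had 9.53 and 9.65, against 7.12 and 10.39. The part of any of these in the changes was not tested.

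The 2 largest differences above 0 at day 2 were those of chaperone genes. Hyou1, the nucleotide exchange factor of Hspa5, had log2 intensities of 8.12, 8.13 and 8.35 in day 2 pools, against 6.28, 7.24 and 7.13 in unfractured pools. The groups lay apart by almost 1 log2 unit, and the difference was 1.31 ± 0.33 (adjusted p = 0.189). The Hyou1 probe was detected on 8 of 9 arrays. Its 6.28 in unfractured replicate 1 lay below the dimmest detected probe of that array (6.66), so the unfractured mean includes a background value. Creld2 had 11.47, 11.18 and 11.60 at day 2, above all unfractured pools, and a difference of 1.07 ± 0.27 (adjusted p = 0.190). Over the 6 pools Hyou1 rose by 1.48 ± 0.38 (adjusted p = 0.0495) and Creld2 by 1.26 ± 0.23 (adjusted p = 0.0287), beside Hsp90b1, which rose by 0.89 ± 0.21 (adjusted p = 0.0411). Hspa5 differed by -0.11 ± 0.27 over 9 pools and by 0.10 ± 0.23 over 6.

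Sec61a1 and Ssr2 differed by 0.93 ± 0.28 and 0.75 ± 0.28 at day 2 (adjusted p = 0.235 and 0.271), with day 2 pools above all unfractured pools in Sec61a1 and, by a narrow margin, in Ssr2. Kdelr3 had log2 intensities of 10.80, 12.59 and 12.81 in day 2 pools, against 10.62, 10.82 and 12.65 in unfractured pools. Its leukocyte-rich pools went the other way from the rest: the difference was 1.98 ± 0.19 in the 6 pools (adjusted p = 0.0176) and -1.85 between the leukocyte-rich pools. Pdia6 (1.26 and -1.18), Sec24d (0.94 and -1.17), Sec61b (1.29 and -0.74) and Kdelr2 (1.21 and -0.66) were of the same kind; these differences between the 2 kinds of pool were not tested.

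Ddit3 and Atf4 lay on the other side. Ddit3 had log2 intensities of 9.55, 9.28 and 9.31 in day 2 pools, against 11.07, 10.63 and 9.54 in unfractured pools. The groups overlap only at the unfractured leukocyte-rich pool, which lay among the day 2 pools, and the difference was -1.04 ± 0.38 (adjusted p = 0.265). In the 6 pools Ddit3 fell by 1.56 ± 0.23 (adjusted p = 0.0211), and a second probe gave -1.16 over 9 pools. Under median scaling the 9-pool differences were 0.06 for Ddit3 and 0.43 for Atf4, where the median of all genes was 0.83. Atf4 had 11.19, 10.70 and 10.19 at day 2, below all unfractured pools (11.31 to 11.49), and a difference of -0.68 ± 0.39 (adjusted p = 0.398). Dnajb9 differed by -0.92 ± 0.42 over 9 pools (adjusted p = 0.325) and fell by 1.08 ± 0.21 in the 6 (adjusted p = 0.0321).

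Between day 6 and day 2 no gene of the 33 passed over 9 pools (0 of 33 in each direction in limma; 1.31% of all genes were higher at day 6 and 0.109% lower, 1.42% in all), nor over the 6 pools (2.44% of all genes higher and 1.04% lower). At an unadjusted p under 0.05, 4 were higher (7% of all genes) and 1 was lower (4.64%). In 10 every day 6 pool lay above every day 2 pool (30.3%; 11.8% of all genes), and in 2, Dnajc3 and Hyou1, every day 6 pool lay below (6.06%; 13.2%). Differences above 0 were found in 23 of the 33 (46% of all genes). Creb3l2 had the largest, 1.42 ± 0.37 (adjusted p = 0.137). Pools of the same replicate number deviated together in these 2 groups, but so did day 6 replicate 2 and day 2 replicate 3. With the number as a block in a fit of day 6 and day 2 pools only, Creb3l2 rose (limma adjusted p = 0.0331). That alternative was chosen after seeing the data. Creb3l2 was the 1 gene of the 33 that rose in it (3.03%), where 3.05% of all genes rose. Hyou1 had 7.75, 7.57 and 6.97 at day 6, against 8.12, 8.13 and 8.35 at day 2, a difference of -0.77 ± 0.33 (adjusted p = 0.403). All 6 measured sensors and transcription factors had positive differences, from 0.14 to 1.42, and 7 of the 8 chaperones negative ones. Both comparisons with unfractured pools share those pools, so the day 6 and day 2 differences from them are not independent.

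Other genes of the pathway, from lists that hold none of the 41, gave few calls over 9 pools. For day 6 against unfractured 1 of 28 genes of ER exit rose, Sec16a, the scaffold of ER exit sites, where 2.19% of all genes rose. It had log2 intensities of 11.61, 11.72 and 11.57 in day 6 pools, against 10.43, 10.64 and 10.30 in unfractured pools, and rose by 1.18 ± 0.21 (adjusted p = 0.0221). Of 16 COPI coat genes 1 rose, Gbf1, the exchange factor that loads Arf1 for that coat (1.54 ± 0.33, adjusted p = 0.0473), and of 16 degradation genes 1 rose, Selenos, a membrane adaptor of the degradation complex (1.20 ± 0.26, adjusted p = 0.0464). None of these 3 genes had overlapping groups. The call of Sec16a was lost in 7 of 20 alternative settings, that of Gbf1 in 10 and that of Selenos in 11, in each case also on leaving out a single pool from replicates 1 and 2 of unfractured periosteum or from replicates 2 and 3 of either fracture group. Of 21 other chaperones and folding enzymes, 27 translocon and signal peptidase genes and 26 stress factors and targets, 0 rose and 0 fell; the smallest adjusted p in them was 0.0629.

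The medians of the lists, day 6 minus unfractured, were 0.72 for the other chaperones and folding enzymes, 0.67 for the COPI coat, 0.55 for ER exit, 0.49 for the translocon list and 0.39 for degradation. The list of stress factors and targets had 0.12, against 0.04 over all genes. Over the 6 pools, where 16.4% of all genes rose and 14.1% fell, 14 of 21 chaperones and folding enzymes rose and 1 fell, 11 of 28 ER exit genes rose, 9 of 16 COPI genes rose and 11 of 27 translocon genes rose, with 0 falling in those 3 lists. Of 16 degradation genes 5 rose and 2 fell. Among the 26 stress factors and targets 4 rose and 5 fell, shares near those of all genes. For day 2 against unfractured no gene of these lists passed over 9 pools, and for day 6 against day 2 the 1 call was that of Bbc3 (PUMA), a cell death gene. It had log2 intensities of 9.05, 9.08 and 8.81 in day 6 pools, against 7.87, 7.90 and 7.67 in day 2 pools, and rose by 1.16 ± 0.20 (adjusted p = 0.0295); unfractured pools lay between, at 8.36 to 8.38. With the replicate number as a block over all 9 pools the call was lost (adjusted p = 0.0679), and 10 of 21 alternative settings ended it.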

How the data were processed

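Per the labels' protocols, total RNA of each pool was extracted with Trizol, amplified and biotinylated, and 1 Illumina bead array was used per pool. The authors' non-normalised table, exported with GenomeStudio per the submitters' processing notes, holds linear intensities that were not normalised between arrays; the version is not given in the sources used here. The deposited detection p-values per probe and array run in steps of 1 in 798. The deposited value table holds intensities that appear quantile-normalised on a linear scale, judged from the values (column medians 198 to 199).

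Here neqc (limma 3.58.1, R 4.3.3) estimated the background from detection p-values, applied normexp with an offset of 16 and quantile normalisation, and gave log2 values from the deposited intensities. Of 25697 probes 23978 had 1 gene symbol in the platform annotation, 0 had several and 1719 had none. The filter kept the 14519 probes whose detection p was below 0.05 on 3 or more of the 9 arrays, and the brightest probe on average stood for its gene (10073 genes). A model with 1 mean per group over all 9 arrays (6 residual degrees of freedom) was tested with limma, two-sided, and p-values were adjusted by Benjamini-Hochberg over all genes; a gene rose or fell at an adjusted p under 0.05. The number of arrays limits the precision. Each p-value sets a difference against the spread between pools, which is not the spread between single animals.

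The 41 genes and all lists were chosen with earlier results of these data known, so no test over a list was made. Values per pool are given for genes called in any comparison, for a listed panel, and for Dnajb9, Hyou1, Syvn1, Sel1l, Sec61a1, Sec61b and Fkbp14, which were added after their values were seen; of other pathway genes, up to 4 called per list and comparison are named. Same-numbered day 6 and day 2 pools deviated together (correlations of deviations from group means 0.51 to 0.63 in all 3 pairs), so these numbers were taken as pairs. Some unlike numbers did so too: day 6 replicate 2 with day 2 replicate 3 had 0.57, and day 6 replicate 3 with day 2 replicate 2 had 0.33. The other unlike pairs, each with a replicate 1, ranged from -0.63 to -0.47. Both replicate 1 pools are leukocyte-rich, and the values do not settle how replicates 2 and 3 pair. By the labels, replicate 2 was male and replicate 3 female in both fracture groups, and the reverse in unfractured periosteum. The block over all 9 pools therefore joins pools of unlike sex, and leukocyte-rich pools with others. Same-numbered correlations with unfractured pools ranged from -0.31 to 0.40. The pairing comes from the values, not the labels. Retrieval signals of the proteins, planned at first, were not analysed here. Alternatives were other background corrections, scalings, filters, probes, samples and covariates.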

Additional observations from a re-analysis of the deposited data

Results flagged for a closer look

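Bbc3, the cell death gene PUMA of the list of stress factors, was picked out because its day 6 and day 2 pools, each set against the same unfractured pools, differed from each other by a test: day 6 minus day 2 was 1.16 on the log2 scale (limma adjusted p = 0.0295). Its differences from unfractured pools were 0.60 at day 6 (adjusted p = 0.147) and -0.56 at day 2 (adjusted p = 0.267), neither past the threshold. None of the 33 measured genes of the pathway met this rule. Groups of 3 pools are too small for the check on single pools that stand apart.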

How the results depend on the processing

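Of 1824 values recomputed under alternatives, 1686 were labelled the same. For single genes that meant the same side of the threshold, and for medians a move smaller than the spread between pools. For counts of genes it meant staying within a set ratio of the count over 9 pools. No result past the threshold changed sign, but differences that had not passed did, among them those of Calr (-0.46 to 1.13) and Herpud1 (-0.38 to 1.06) at day 6 and Atf4 (-0.96 to 0.43) at day 2, all against unfractured. The number of measured genes that rose at day 6 against unfractured, 1 over 9 pools, was 3 without background correction, 4 in the deposited value table, 2 with an offset of 50, 2 among genes detected on all 9 arrays, 2 when every probe was tested, 2 with the replicate number as a block, and 0 with only the 2 groups or with sex in the model; leaving out 1 pool gave 0 to 8. Without the leukocyte-rich pools 16 rose and 2 fell at day 6, and 13 rose and 2 fell at day 2. Leaving out 1 pool gave 0 to 8 rises and 0 to 1 falls at day 2. For day 6 against day 2 the block in a fit of those groups alone gave 1 rise; the block over all 9 pools changed no call of the 33 there. Under median scaling the median change of the measured genes was 1.47 at day 6 and 1.34 at day 2, where that of all genes was 0.72 and 0.83, so differences of single genes are read relative to that shift. Medians ranged from 0.42 to 0.64 (day 6) and 0.21 to 0.52 (day 2) with 1 pool left out, and the day 2 median was 0.57 in the 6 pools. All genes called at day 6 against unfractured numbered 284, and 186 among those detected on all 9 arrays, 139 with only the 2 groups, 3068 in the 6 pools and 53 to 1568 with 1 pool left out. At day 2 against unfractured they numbered 0, and 2095 in the 6 pools and 0 to 924 with 1 pool left out. For day 6 against day 2 they numbered 143, and 80 under median scaling, 60 among genes detected on all 9 arrays, 216 with only the 2 groups, 89 with the block, 438 with the block in those groups alone, 351 in the 6 pools and 47 to 189 with 1 pool left out. Fewer genes tested or fewer pools are part of these settings; otherwise the cause was not tested. Signal over background limits Manf, Edem1, Hyou1 and Creb3l1, which were not detected on every array.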
